A study of Mus musculus with 6 samples.

Results

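The mitochondrial ribosomal proteins were taken as the protein-coding genes whose symbol begins with Mrpl or Mrps followed by a digit, and 78 of 21642 protein-coding genes with a listed transcript met this rule. By symbol, 49 of them belong to the large subunit (Mrpl) and 29 to the small subunit (Mrps), and all 78 had enough reads to be tested, among 16656 genes tested in all. RNA was sequenced from CD11b+Gr1+ splenocytes, a myeloid cell fraction sorted by flow cytometry, in 3 libraries from Rpl22+/+ and 3 from Rpl22-/- mice. Rpl22 encodes a protein of the large subunit of the cytosolic ribosome, and Rpl22-/- mice carry its loss in the germline. Every library of both groups also carries the Mll-AF9 knockin, a fusion oncogene that gives rise to acute myeloid leukemia, so no group is free of leukemia. The cells were explanted from tumor-bearing animals. Whether the libraries of 1 genotype stem from different animals is not given in the labels, and the study's description of the explants names a single animal for each genotype. The p-values therefore measure the spread between these libraries, which may be technical, and genotype and animal cannot be told apart if each genotype is 1 animal.

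Mitochondria translate the few mRNAs encoded by their own genome, which specify membrane subunits of the respiratory chain and the ATP synthase, on a ribosome of their own. Its RNAs come from mitochondrial DNA, but every one of its proteins is encoded in the nucleus, made on cytosolic ribosomes and imported. One set of these proteins descends from bacterial ribosomal proteins, and another set has no bacterial counterpart and is particular to mitochondria. The symbols do not always give the place of the protein: Mrps30 and Mrps18a sit in the large subunit, and Mrps36 is now known as a component of the alpha-ketoglutarate dehydrogenase complex of the citric acid cycle.

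The libraries held 35828500 to 102866127 estimated reads. Rpl22 itself stood at 148, 235 and 152 CPM (reads scaled to library size and composition) in the Rpl22+/+ libraries and at 58.3, 89.9 and 73.5 CPM in the Rpl22-/- libraries, a fall of 1.27 on the log2 scale (SE 0.25, edgeR adjusted p = 0.0106), and the groups did not overlap. Rpl22+/+ replicate 2 stood apart from the other libraries of its group: its log2 CPM correlated with replicates 1 and 3 at r = 0.926 and 0.934, while those 2 correlated at 0.992. Of the genes for the sort antigens, Itgam (CD11b) fell by 1.02 and Ly6g fell by 3.49 on the log2 scale in Rpl22-/- (adjusted p = 0.00482 and 9.7e-05), and Ly6c1 and Ly6c2 did not pass. With the replicate number as a block, with a correction for GC content, or without Rpl22+/+ replicate 2, 1 of the 4 rose and 2 fell. Of 5 erythroid genes, 4 rose and Klf1, at 0 in 2 Rpl22-/- libraries, did not pass, and the summed level of the 5 was 53.6 to 82.5 CPM in Rpl22+/+ against 342 to 683 CPM in Rpl22-/-. All 5 T cell genes fell (30.2 to 38.5 against 9.52 to 11.3 CPM, summed), as did Pax5 among 5 B cell genes (567 to 721 against 359 to 550 CPM, summed). No B cell gene passed with the replicate number as a block or without composition factors. None of the 3 tested platelet genes (3.09 to 5.09 against 3.90 to 4.61 CPM, summed) or of the 3 tested stromal and endothelial genes passed (59.6 to 71.1 against 74.3 to 94.8 CPM, summed), with Pf4, Ppbp, Col1a2 and Col3a1 too low to test. Of the stromal and endothelial genes 1 rose by DESeq2, with the replicate number as a block, with a correction for GC content and without composition factors. Without Rpl22+/+ replicate 2, 1 gene of each of these 2 lists rose. Among 15 proliferation genes Ccna2 alone passed in the main test, and it fell by 0.67 on the log2 scale. When Rpl22+/+ replicate 2 was left out, 5 of the 15 rose (33.3%, against 20.7% of all genes) and 1 fell. Without composition factors 3 rose, after GC correction 2 did, and blocking by replicate number gave 1. In each of these fits 1 fell. The part of these cell types in the results below was not tested, and in bulk RNA fewer cells of a type and less RNA per cell cannot be told apart.

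In absolute terms, the 78 genes were moderately expressed and spanned a wide range. On the TPM scale, a transcript abundance corrected for length that allows genes to be compared, the median of the mean level over the 6 libraries was 38.0 TPM for the large subunit genes and 36.6 TPM for the small subunit genes. The highest large subunit gene was Mrpl33, at 283 ± 8.6 TPM in Rpl22+/+ and 398 ± 46.8 TPM in Rpl22-/- (SD, n = 3 each), followed by Mrpl24 (82.1 ± 8.5 and 110 ± 19.3 TPM) and Mrpl30 (89.3 ± 8.6 and 99.9 ± 15.6 TPM). All 3 descend from bacterial proteins, and Mrpl33 alone made up 14.4% of the summed large subunit level. The lowest were Mrpl23 (3.27 TPM on average), Mrpl1 (6.90 TPM) and Mrpl47 (9.95 TPM), where Mrpl23 shares reads with an identical copy described below. Among small subunit genes the highest were Mrps21, at 156 ± 17.5 TPM in Rpl22+/+ and 179 ± 11.1 TPM in Rpl22-/-, Mrps33 (54.9 ± 5.6 and 99.0 ± 9.98 TPM) and Mrps18c (69.2 ± 2.8 and 83.7 ± 7.7 TPM). The lowest were Mrps6 (7.12 ± 1.0 and 11 ± 1.0 TPM), Mrps31 (8.78 ± 0.16 and 10.2 ± 0.72 TPM) and Mrps30 (10.5 ± 0.87 and 11.4 ± 0.67 TPM), with 18.5-fold between the ends.

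To compare the genotypes, the reads summed to each gene were tested with edgeR (quasi-likelihood F test) across all 16656 genes. In Rpl22-/- cells 11 of the 78 genes rose (14.1%) and none fell, with an adjusted p under 0.05, where 13.7% of all genes rose and 13.8% fell. The share that rose was near that of all genes. At an unadjusted p under 0.05, 22 members were higher and 1 lower, where 20% and 19.0% of all genes were. DESeq2 and limma-voom also called none lower, where they called 16.6% and 13.8% of all genes lower. Only Mrps22 rose over 2-fold and none fell over 2-fold, against 8.93% and 8.54% of all genes. The changes were small and mostly to one side: 67 of the 78 genes (85.9%) had a log2 fold change above 0, as did 54.2% of all genes, and the median log2 fold change was 0.30 (1.23-fold) against 0.07 over all genes. With 1 library left out the members' median ran from 0.18 (without Rpl22+/+ replicate 1) and 0.19 (without replicate 3) to 0.44 (without replicate 2). The excess of the members' median over that of all genes was 0.231 with all libraries. It was 0.104, 0.405 and 0.128 without Rpl22+/+ replicates 1, 2 and 3, and 0.298, 0.134 and 0.278 without Rpl22-/- replicates 1, 2 and 3. In 25 genes every Rpl22-/- library lay above every Rpl22+/+ library, and in 1, Mrpl52, every one lay below (background 23.9% and 22.2% of all genes).

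The number that passed depended strongly on single libraries and on the fit. Without Rpl22+/+ replicate 2, 39 of the 78 rose and none fell, where 20.7% of all genes rose and 19.3% fell. Without any one of the other 5 libraries, 3 or 4 rose: 4 without Rpl22+/+ replicate 1, 3 without replicate 3, and 4, 4 and 3 without Rpl22-/- replicates 1, 2 and 3. In these 5 fits 8.06%, 6.76%, 8.68%, 9.55% and 8.11% of all genes rose, and the members' share was below that in each. With the replicate number as a block, 24 rose and 1 fell (17.7% and 16.1% of all genes). The deposited TPM values, tested with limma as log2(TPM + 1), gave 42 higher and 1 lower (19.3% and 12.8% of all genes). On the TPM scale 52 of the 78 genes did not overlap between the groups and were higher in Rpl22-/-, and 1 was lower (30.4% and 18.6% of all genes). In each of these fits the median of the 78 genes lay above that of all genes.

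**Figure D1:**
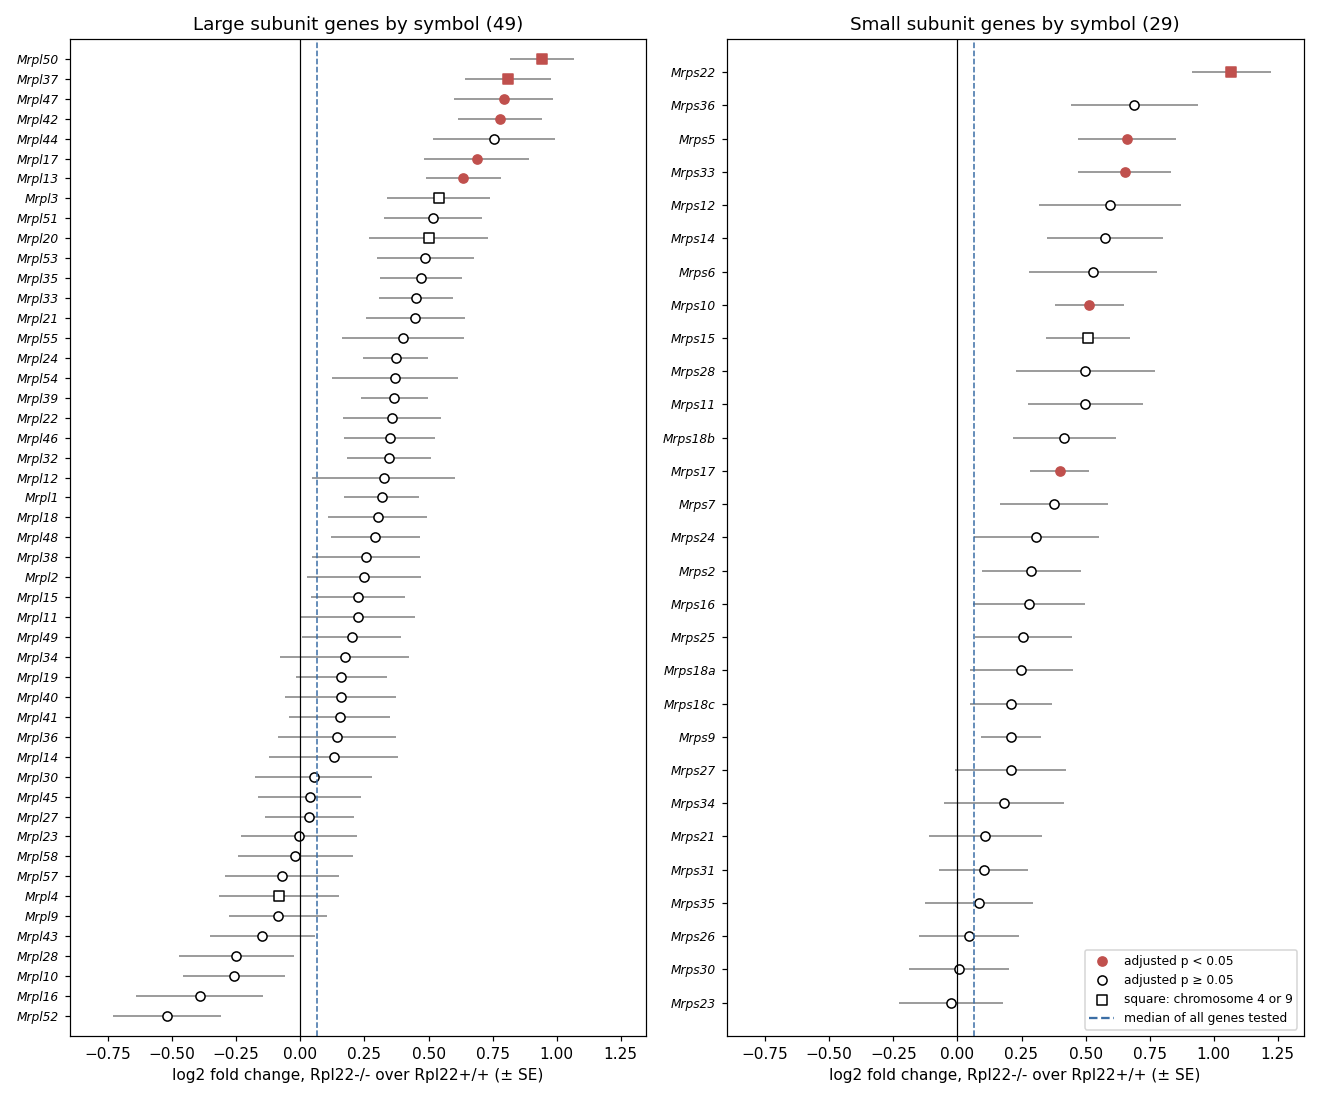
Log2 fold change of each mitochondrial ribosomal protein gene in Rpl22-/- over Rpl22+/+ cells with its standard error (edgeR, n = 3 libraries each), for the 49 large subunit genes on the left and the 29 small subunit genes on the right. Filled symbols are the 11 genes that passed, squares are genes on chromosome 4 or 9, and the dashed line is the median of all genes tested (0.07); 67 of the 78 points lie above 0.

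Of the 6 large subunit genes that rose, 3 encode proteins particular to mitochondria. Mrpl50 (ENSMUSG00000044018, chr4:49512596-49521093, GRCm39) stood at 14.2, 12.9 and 14.5 CPM in Rpl22+/+ and at 27.4, 26.4 and 26.2 CPM in Rpl22-/- cells. Both groups were tight and far apart, with Rpl22+/+ replicate 2 slightly below the others of its group. Mrpl50 was 1.92-fold higher (log2 fold change 0.94, SE 0.12, adjusted p = 0.00238). Mrpl37 (chr4:106913071-106924065) stood at 29.3, 41.8 and 30.7 CPM against 61.3, 59.3 and 57.8 CPM, and rose 1.75-fold (0.81, SE 0.17, adjusted p = 0.0134). Here Rpl22+/+ replicate 2 was the highest of its group but still below every Rpl22-/- library. Mrpl42 (chr10:95316667-95337802) stood at 27.1, 19.4 and 26.8 CPM against 41.7, 42.6 and 41.3 CPM, a 1.71-fold rise (0.78, SE 0.16, adjusted p = 0.014). In this gene Rpl22+/+ replicate 2 was the lowest library, and without it the log2 fold change was 0.59 (adjusted p = 0.00394).

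The other 3 large subunit genes that rose encode descendants of bacterial proteins. Mrpl13 (chr15:55397490-55421144), the counterpart of bacterial L13, which binds ribosomal RNA early in assembly, stood at 20.5, 23.3 and 19.8 CPM in Rpl22+/+ and at 30.2, 37.4 and 31.3 CPM in Rpl22-/-. All Rpl22-/- libraries lay above the Rpl22+/+ libraries, and the rise was 1.55-fold (log2 fold change 0.63, SE 0.15, adjusted p = 0.0195). Mrpl47 (chr3:32779546-32791754), the counterpart of L29 near the exit of the peptide tunnel, stood at 7.39, 4.90 and 6.64 CPM against 11.6, 11.2 and 10.1 CPM. It rose 1.73-fold (0.79, SE 0.19, adjusted p = 0.0247), with the lowest value again in Rpl22+/+ replicate 2. Mrpl17 (chr7:105452413-105460306), which also lies near the tunnel exit, stood at 23.1, 36.5 and 23.5 CPM against 42.9, 47.2 and 43.8 CPM. Its rise of 1.61-fold (0.69, SE 0.20, adjusted p = 0.0468) was 0.89 on the log2 scale without Rpl22+/+ replicate 2 (adjusted p = 0.00142).

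Among the small subunit genes the largest change was in Mrps22 (ENSMUSG00000032459, chr9:98470783-98483713), which encodes a protein particular to mitochondria and is mutated in a human mitochondrial disease. It stood at 9.57, 10.7 and 8.82 CPM in Rpl22+/+ and at 18.8, 23.0 and 19.3 CPM in Rpl22-/- cells, 2.10-fold higher (log2 fold change 1.07, SE 0.15, adjusted p = 0.00342). No Rpl22-/- library came near the Rpl22+/+ range. Without Rpl22+/+ replicate 3 or Rpl22-/- replicate 2 the change was no longer over 2-fold, although it still passed. Mrps33 (chr6:39778738-39787922), also particular to mitochondria, stood at 20.3, 27.7 and 20.9 CPM against 34.7, 41.8 and 31.7 CPM and rose 1.57-fold (0.65, SE 0.18, adjusted p = 0.0383). With a correction for GC content its adjusted p was 0.0732.

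The remaining 3 small subunit genes have bacterial counterparts. Mrps10 (chr17:47679812-47692342), a protein of the head of the subunit, stood at 17.0, 19.8 and 17.0 CPM in Rpl22+/+ and at 26.8, 26.1 and 23.8 CPM in Rpl22-/- (1.43-fold, log2 fold change 0.51, SE 0.14, adjusted p = 0.0309). Mrps17 (chr5:129792561-129799620), which binds ribosomal RNA in the body of the subunit, had the smallest rise of the 11, from 31.4, 32.5 and 31.5 CPM to 44.1, 41.5 and 40.2 CPM (1.32-fold, 0.40, SE 0.11, adjusted p = 0.0416). Its groups were tight and clearly apart, but with the replicate block its adjusted p was 0.0514. Mrps5 (chr2:127429142-127448749), a protein at the path by which mRNA enters the subunit, stood at 22.5, 32.6 and 22.7 CPM against 40.5, 45.9 and 36.5 CPM (1.58-fold, 0.66, SE 0.19, adjusted p = 0.0432). Across the 19 alternative fits, Mrpl50 and Mrps22 passed in all 19, Mrpl42 in 17, Mrpl37 and Mrpl13 in 16, and the other 6 in 12 to 14. Most of the lost calls fell in fits that left out a library.

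**Figure D2:**
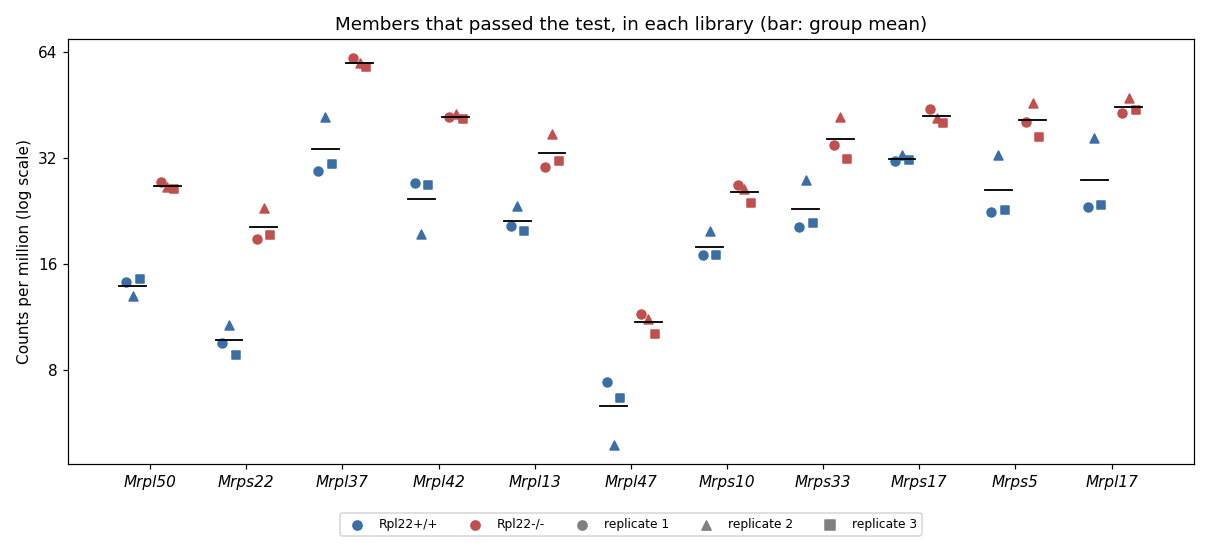
CPM on a log scale in each library for the 11 genes that passed, with Rpl22+/+ in blue, Rpl22-/- in red, a symbol for each replicate number and a bar at the group mean. In all 11 the lowest Rpl22-/- library lies above the highest Rpl22+/+ library, and replicate 2 (triangles) is the lowest of the Rpl22+/+ libraries for Mrpl50, Mrpl42 and Mrpl47 and the highest for the other 8.

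The stalk of the large subunit, where translation factors bind, is formed by Mrpl10, Mrpl11 and Mrpl12, none of which passed. Mrpl10 stood at 42.0, 66.6 and 44.0 CPM against 41.9, 44.1 and 41.6 CPM (log2 fold change -0.26, SE 0.20, adjusted p = 0.397), so that only Rpl22+/+ replicate 2 differed visibly from the rest. For Mrpl11 the log2 fold change was 0.22 (SE 0.22, adjusted p = 0.521), and Mrpl12, at 28.7, 52.5 and 29.7 CPM against 37.3, 55.5 and 46.1 CPM, had 0.32 (SE 0.28, adjusted p = 0.451). Without Rpl22+/+ replicate 2 the value for Mrpl12 was 0.63 (adjusted p = 0.0421). Mammals have 3 proteins related to bacterial S18, which take different places in the ribosome. Their log2 fold changes were 0.25 for Mrps18a (SE 0.20, adjusted p = 0.42), 0.42 for Mrps18b (SE 0.20, adjusted p = 0.174) and 0.21 for Mrps18c (SE 0.16, adjusted p = 0.389), and in all 3 the groups overlapped. Without Rpl22+/+ replicate 2, Mrps18a and Mrps18b passed (adjusted p = 0.0255 and 0.00656) and Mrps18c did not (0.234).

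Mrps30, a large subunit protein despite its symbol, averaged 28.4 ± 6.5 CPM over the Rpl22+/+ and 28.6 ± 3.3 CPM over the Rpl22-/- libraries (SD, n = 3 each, log2 fold change 0.01, SE 0.20). Mrps36, the component of the alpha-ketoglutarate dehydrogenase complex, stood at 11.5, 20.7 and 12.7 CPM against 21.5, 26.6 and 24.3 CPM (log2 fold change 0.69, SE 0.25, adjusted p = 0.0828). Its groups did not overlap, and it passed with the replicate block (adjusted p = 0.0214). Of the 11 genes with a log2 fold change below 0, Mrpl52, a protein particular to mitochondria, lay lowest: 13.1, 19.7 and 13.8 CPM against 9.12, 12.1 and 11.3 CPM (-0.52, SE 0.21, adjusted p = 0.117). It was the 1 gene called lower with the replicate block (adjusted p = 0.0471). It was followed by Mrpl16 (-0.39, SE 0.25, adjusted p = 0.298), Mrpl10 and Mrpl28 (-0.25, SE 0.22, adjusted p = 0.473), all counterparts of bacterial proteins. Without Rpl22+/+ replicate 2 these 3 values were -0.15, -0.06 and -0.01.

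Besides the 11 that passed, 14 members had every Rpl22-/- library above every Rpl22+/+ library without passing, and these were chosen for description after their values were seen. The smallest p-value among them was that of Mrpl44, a protein with a fold like that of RNase III, which stood at 16.8, 30.0 and 19.6 CPM against 35.8, 42.6 and 33.6 CPM (log2 fold change 0.76, SE 0.24, adjusted p = 0.0568, and 0.0135 with the replicate block). Mrpl33, the most abundant member, stood at 86.1, 95.8 and 88.3 CPM against 121, 140 and 108 CPM (0.45, SE 0.14, adjusted p = 0.0586, and 0.0445 with the replicate block). Mrpl24, a counterpart of a bacterial protein at the tunnel exit, stood at 59.9, 63.4 and 58.1 CPM against 86.5, 74.3 and 74.0 CPM (0.37, SE 0.13, adjusted p = 0.0706). In all 3 the gap between the groups was smaller than the range within the wider group.

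Mrpl45, which tethers the ribosome to the inner membrane, had a value of 0.04 on the log2 scale (SE 0.20, adjusted p = 0.923). Mrpl38, Mrpl40, Mrpl46 and Mrpl48 are among the proteins of the central protuberance and are not its full set. Their log2 fold changes were 0.26, 0.16, 0.35 and 0.29, and none of them passed. Mrpl58, which is also a peptidyl-tRNA hydrolase that frees stalled ribosomes, stood at 17.1, 28.2 and 17.3 CPM against 20.2, 22.1 and 19.4 CPM (-0.02, SE 0.22, adjusted p = 0.963), and apart from Rpl22+/+ replicate 2 its libraries lay close together.

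In 74 of the 78 genes Rpl22+/+ replicate 2 lay above both other Rpl22+/+ libraries (94.9%), as it did in 54.7% of all genes. It also did so in 98.75% of the nuclear subunits of oxidative phosphorylation and in 96.6% of the cytosolic ribosomal proteins. Among all genes by GC content, it did so in 24.6% under 48%, in 67.0% between 48% and 54%, and in 81.6% above 54%. The level of Rpl22+/+ replicate 2 was a median of 1.49-fold that of replicates 1 and 3 over the 78 genes, or 0.579 on the log2 scale. Over all genes tested this median was 0.123 on the log2 scale. The excess rose with the GC content of the transcripts, which ran from 40.9% to 60.5%: Pearson's r was 0.63 over the 78 genes, which share the same libraries and are given as a description. Exceptions to the excess were Mrpl1, Mrpl42, Mrpl47 and Mrpl50, each with a GC content under 48%. Of the 16 members under 48% GC, 5 rose, of 40 between 48% and 54%, 5 rose, and of 22 above 54%, 1 rose (31.2%, 12.5% and 4.55%). Of all genes in these classes 10.1%, 15.1% and 17.0% rose. With a correction for GC content 30 members rose and 1 fell, where 19.3% of all genes rose and 19.0% fell. The medians of the 3 GC classes were 0.46, 0.28 and 0.25 on the log2 scale, and 0.49, 0.39 and 0.46 without Rpl22+/+ replicate 2. What set this library apart was not tested.

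**Figure D3:**
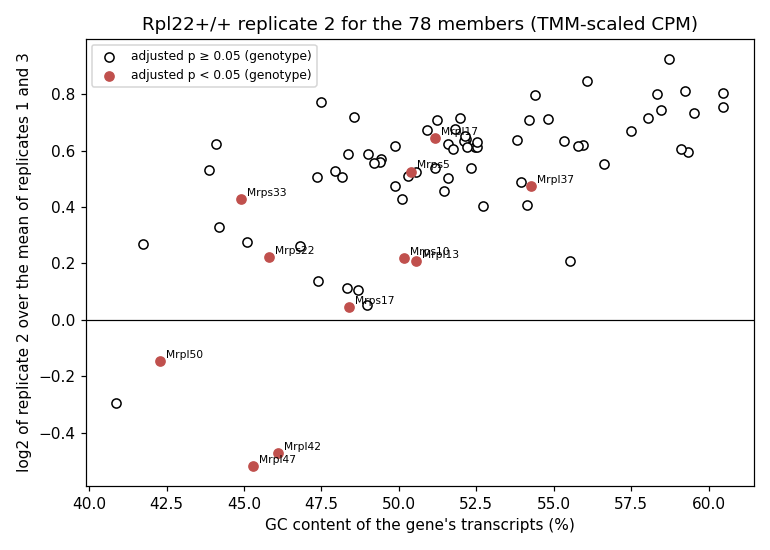
GC content of each member's transcripts in percent (horizontal axis) against the log2 ratio of its CPM in Rpl22+/+ replicate 2 to the mean of replicates 1 and 3 (vertical axis), for all 78 genes, with the 11 genes that passed between genotypes filled and named. The ratio is above 0 in all but 4 genes, and 3 of these 4 are among the 11.

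The 3 members with the smallest p-values, Mrpl50, Mrps22 and Mrpl37, lie on chromosomes 4 and 9. On chromosome 4, which also carries Rpl22 (chr4:152410199-152418528), 2 of the 4 members rose (Mrpl50 and Mrpl37, not Mrps15 or Mrpl20), and on chromosome 9, 1 of 3 (Mrps22, not Mrpl3 or Mrpl4). In each of 3 separate alternative fits (without Rpl22+/+ replicate 2, with GC correction, and with the replicate block), all 4 members on chromosome 4 and 2 of 3 on chromosome 9 (with Mrpl3 added) rose. In the same fits 45.3%, 41.5% and 38.8% of all genes on chromosome 4 and 34%, 34.4% and 33.3% of those on chromosome 9 rose. Genes on these chromosomes were higher in Rpl22-/- more often in general: 31.9% of 950 genes on chromosome 4 and 24.7% of 959 on chromosome 9 rose, against 11.9% of 14747 elsewhere. Their median log2 fold changes were 0.44 and 0.41, against 0.03 elsewhere. Of the 71 members on other chromosomes 8 rose (11.3%), with a median of 0.28. Without Rpl22+/+ replicate 2, 33 of these 71 rose (46.5%), against 18.5% of the 14747 genes elsewhere. The part of the chromosome in the rise of Mrpl50, Mrpl37 and Mrps22 was not tested.

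Large and small subunit genes were next set side by side. Of 49 large subunit genes 6 rose (12.2%), and of 29 small subunit genes 5 rose (17.2%), where 13.7% of all genes did, and the median log2 fold changes were 0.29 and 0.31. When Rpl22+/+ replicate 2 was left out, 19 large (38.8%) and 20 small subunit genes (69.0%) rose, with medians of 0.41 and 0.48, where 20.7% of all genes rose. With the replicate block 14 and 10 rose (28.6% and 34.5%, against 17.7% of all genes). The difference between the subunits in these counts and medians was not tested. With Mrps30 and Mrps18a placed in the large subunit and Mrps36 left out, 6 of 51 and 5 of 26 rose, with medians of 0.26 and 0.34. Summed over its genes, the large subunit had 1962, 2212 and 1986 TPM in Rpl22+/+ and 2627, 2790 and 2634 TPM in Rpl22-/-, and the small subunit 991, 1131 and 995 TPM against 1402, 1481 and 1376 TPM. The groups did not overlap, and the Rpl22-/- means were 1.31-fold and 1.37-fold those of Rpl22+/+.

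On the CPM scale the groups overlapped. With composition factors, all 78 genes summed to 1651, 2372 and 1690 CPM in Rpl22+/+ and to 2209, 2575 and 2254 CPM in Rpl22-/-, and Rpl22+/+ replicate 2 lay within the Rpl22-/- range. Between libraries of the same replicate number, the Rpl22-/- sum was the higher in all 3 pairs. The ratio of the large to the small subunit sum in TPM was 1.98, 1.95 and 2.00 in Rpl22+/+ and 1.87, 1.88 and 1.91 in Rpl22-/-. Without the highest gene of each subunit, Mrpl33 and Mrps21, it was 2.00, 2.02 and 1.99 against 1.84, 1.81 and 1.88. With subunits by structure it was 2.19, 2.19 and 2.22 against 2.09, 2.10 and 2.15. By these sums the ratio was slightly lower in every Rpl22-/- library, but the ratio of the median levels was 1.11 ± 0.02 and 1.11 ± 0.10 (SD, n = 3 each) and overlapped.

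**Figure D4:**
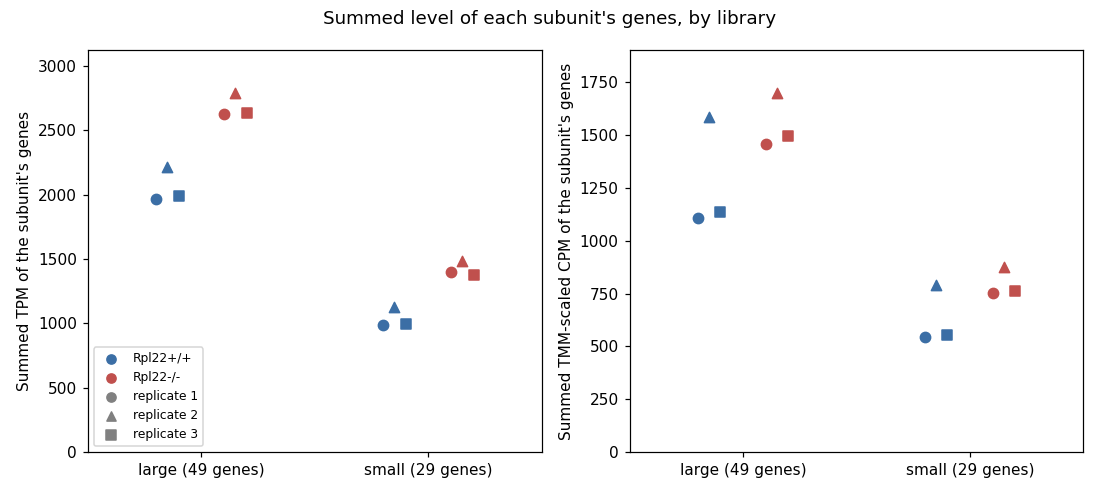
Summed level of the 49 large and the 29 small subunit genes in each library, in TPM on the left and in composition-scaled CPM on the right, with Rpl22+/+ in blue, Rpl22-/- in red and a symbol for each replicate number. In TPM the 3 Rpl22-/- libraries (2627 to 2790 for the large subunit) lie above the Rpl22+/+ libraries (1962 to 2212), and in CPM Rpl22+/+ replicate 2 lies within the Rpl22-/- range.

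By ancestry, following the systematic names of the mitochondrial ribosomal proteins, 46 members have a bacterial counterpart and 31 are particular to mitochondria, and Mrps36 was placed in neither group. By these names Mrps18a and Mrps18b count among the 31, although both are related to bacterial S18. Of the 46 members 6 rose (13.0%, median log2 fold change 0.32) and of the 31 members 5 (16.1%, 0.25), both near the 13.7% of all genes. Leaving out Rpl22+/+ replicate 2 turned the order, with 54.3% and 41.9% higher, against 20.7% of all genes, and the difference between the classes was not tested. The 4 smallest p-values belonged to genes particular to mitochondria: Mrpl50, Mrps22, Mrpl37 and Mrpl42.

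Processed pseudogenes of 3 members could take reads from their parents. The copy of Mrpl23, Mrpl23-ps1 (chr2:74421674-74422253), was identical to the Mrpl23 transcript over 540 aligned bases, and took 1194, 1999 and 1218 reads for Rpl22+/+ against 664, 2207 and 1950 for Rpl22-/-. Mrpl23 itself kept 149, 173 and 144 reads against 77.1, 249.4 and 192 reads, or 7.98% to 11.1% of the pair. The level of Mrpl23 given above, the lowest of all members, is therefore uncertain. The level of the pair together was 22.2 ± 6.2 CPM for Rpl22+/+ and 21.5 ± 2.6 CPM for Rpl22-/- libraries (SD, n = 3 each).

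The copy of Mrpl48, Mrpl48-ps (chr4:88517412-88518047), is 98.1% identical to its parent over 636 bases. It was assigned 87.5, 157 and 133 reads in the Rpl22+/+ libraries and 0 in each of the 3 Rpl22-/- libraries. With 3 reads over the Rpl22-/- group as the limit that a count of 0 allows, it was at least 128-fold lower (adjusted p = 0.000995). Its reads were few beside those of Mrpl48, which held 92.1% or more of the pair in every library (log2 fold change 0.29, SE 0.17, adjusted p = 0.269). The 3 copies of Mrps36 had 0 to 4.45 reads in each library.

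At the level of single transcripts, 281 transcripts of the members were tested among 52589. Of these 3 were higher in Rpl22-/- and none lower, where 2.65% of all transcripts were higher and 3.15% lower. At an unadjusted p under 0.05, 25 were higher and 0 lower, against 9.78% and 10.2% of all transcripts. With the replicate block no member transcript passed in either direction (1.2% of all transcripts were higher and 1.76% lower), and without Rpl22+/+ replicate 2, 9 were higher and none lower (3.88% and 3.97% of all transcripts). The Mrpl50 transcript ENSMUST00000057829, which carries all reads of its gene, rose by 0.88 on the log2 scale (SE 0.15, adjusted p = 0.026). A transcript of Mrpl37 with a retained intron (ENSMUST00000141150, 15.7% of the gene's reads) was given 310, 239 and 370 reads for Rpl22+/+ against 506, 941 and 1050 for Rpl22-/- (log2 fold change 1.33, SE 0.23, adjusted p = 0.0267). A short protein-coding transcript of Mrpl42 (ENSMUST00000217777, 1.74% of the gene's reads) had 8.65, 6.83 and 18 reads against 68.7, 72.8 and 94.8 reads (2.82, SE 0.57, adjusted p = 0.0416). The first Rpl22-/- library has the fewest reads in all, and the Mrpl42 transcript stood well above the Rpl22+/+ range even there. The transcripts with most reads of Mrpl37, Mrpl42 and Mrps22 did not pass. They were ENSMUST00000030365 (78.9% of the gene's reads, log2 fold change 0.59, adjusted p = 0.325), ENSMUST00000218893 (90.8%, 0.73, adjusted p = 0.0528) and ENSMUST00000035034 (99.1%, 1.00, adjusted p = 0.0578). Transcripts not annotated as protein-coding took 19.0%, 16% and 18.4% of the members' reads in Rpl22+/+ and 22.0%, 18.8% and 18.8% in Rpl22-/-. These ranges overlapped, and between libraries of the same replicate number the Rpl22-/- share was the higher in all 3 pairs.

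The promoters of the members with the smallest p-values are shown because these genes moved in the same direction. Sequences are from RefSeq on the GRCm38.p6 build, a different build from the gene positions above, and 69 of the 78 members were matched in the table by symbol. Each line gives the 250 bases before the start of the gene, 5′ to 3′ on its own strand, and capitals mark a match to one of the motifs searched. Mrpl13 had no entry.
Mrpl50, chr4:49521084-49521333 (minus strand): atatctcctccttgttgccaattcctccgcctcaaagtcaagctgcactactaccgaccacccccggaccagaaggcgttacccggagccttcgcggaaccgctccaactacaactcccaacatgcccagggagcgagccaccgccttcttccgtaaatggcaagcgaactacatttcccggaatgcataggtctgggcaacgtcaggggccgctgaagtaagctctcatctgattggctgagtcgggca
Mrps22, chr9:98601680-98601929 (minus strand): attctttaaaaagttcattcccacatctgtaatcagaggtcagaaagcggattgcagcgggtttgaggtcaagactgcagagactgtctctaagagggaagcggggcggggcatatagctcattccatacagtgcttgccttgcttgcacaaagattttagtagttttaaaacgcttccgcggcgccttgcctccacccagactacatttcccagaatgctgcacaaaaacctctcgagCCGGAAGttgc
Mrpl37, chr4:107066867-107067116 (minus strand): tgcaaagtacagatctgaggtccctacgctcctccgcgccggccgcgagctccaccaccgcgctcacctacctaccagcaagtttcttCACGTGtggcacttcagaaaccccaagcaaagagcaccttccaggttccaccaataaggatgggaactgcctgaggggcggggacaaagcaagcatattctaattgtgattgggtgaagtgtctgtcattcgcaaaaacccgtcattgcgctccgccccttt
Mrpl42, chr10:95501950-95502199 (minus strand): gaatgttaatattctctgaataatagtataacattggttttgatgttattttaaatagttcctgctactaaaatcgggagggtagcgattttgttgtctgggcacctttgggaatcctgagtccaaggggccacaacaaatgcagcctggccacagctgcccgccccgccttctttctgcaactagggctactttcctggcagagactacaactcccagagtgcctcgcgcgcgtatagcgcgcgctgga
Mrpl47, chr3:32736756-32737005 (minus strand): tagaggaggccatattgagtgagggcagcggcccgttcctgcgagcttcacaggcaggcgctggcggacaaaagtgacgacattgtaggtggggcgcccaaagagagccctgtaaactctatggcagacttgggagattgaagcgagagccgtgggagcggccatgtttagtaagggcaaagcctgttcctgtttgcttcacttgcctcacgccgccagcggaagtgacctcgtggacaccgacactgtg
Mrps10, chr17:47368947-47369196 (plus strand): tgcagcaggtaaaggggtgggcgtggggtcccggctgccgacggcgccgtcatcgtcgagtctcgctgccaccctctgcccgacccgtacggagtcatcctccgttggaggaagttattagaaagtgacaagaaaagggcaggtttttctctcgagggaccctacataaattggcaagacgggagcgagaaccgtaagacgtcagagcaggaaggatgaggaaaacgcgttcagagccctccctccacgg

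A window from 250 bases before to 50 after each start was searched on both strands for CGCATGCG (the site of NRF1, a factor known for nuclear genes of mitochondria), CCGGAAG (the core bound by ETS factors, GABP among them), CACGTG (the E-box bound by MYC and others) and AAGATGGCG (YY1), of which CCGGAAG and AAGATGGCG can share the letters AAG. In the promoters printed, Mrps22 holds the ETS core from base -11 and Mrpl37 the E-box from base -162. AAGATGGCG begins at base 27 after the start in Mrpl37 and at base 28 in Mrpl42, outside the stretch shown. Mrpl50, Mrpl47 and Mrps10 hold none of the 4. Counting a gene once over all its windows, the ETS core was found in 26 of the 69 members (37.7%), against 9.93% of 27025 genes in the table and 19.1% of the 11100 tested genes in it. The NRF1 site was found in 7 members (10.1%, against 2.07% and 3.97%), AAGATGGCG in 8 (11.6%, against 1.64% and 3.33%), and the E-box in 5 (7.25%, against 8.09% and 11.3%). Of the 10 members that rose and have an entry, 3 hold the ETS core, 1 the NRF1 site, 2 AAGATGGCG and 1 the E-box, and of the other 59, 23, 6, 6 and 4 do. These matches describe the letters in the windows only.

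Other genes of mitochondrial gene expression were taken from lists of known members. The 5 mitoribosomal proteins with other symbols did not pass in edgeR, DESeq2 or limma-voom. Their log2 fold changes were 0.55 for Chchd1 (SE 0.19, adjusted p = 0.0743, and 0.0219 with the replicate block), 0.48 for Ptcd3 (SE 0.38, adjusted p = 0.401), 0.45 for Gadd45gip1 (SE 0.24, adjusted p = 0.22), 0.19 for Aurkaip1 (SE 0.23, adjusted p = 0.606) and 0.13 for Dap3 (SE 0.16, adjusted p = 0.604). Of 28 assembly factors 2 rose and 2 fell (7.14% each, against 13.7% and 13.8% of all genes). Dhx30, an RNA helicase of the mitochondrial RNA granule, rose by 0.81 (SE 0.17, adjusted p = 0.0148) and Gtpbp6, a GTPase that acts on the large subunit, by 0.65 (SE 0.19, adjusted p = 0.04). Rbfa, which binds the small subunit late in its assembly, stood at 88.4, 133 and 93.7 CPM in Rpl22+/+ and at 48, 54.7 and 50.7 CPM in Rpl22-/-, and fell by 1.04 on the log2 scale (SE 0.19, adjusted p = 0.00788). Trub2, a pseudouridine synthase, fell by 0.46 (SE 0.13, adjusted p = 0.0385). The call held in 10 of 19 alternative fits for Trub2 and in 13 for Gtpbp6. Rbfa was thus opposite in direction to the 11 ribosomal protein genes. Dhx30 lies on chromosome 9, where 24.7% of 959 genes rose. The lists of other mitochondrial gene expression genes were not split by chromosome.

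Of 14 translation factors, Mtfmt rose, the enzyme that formylates the initiator tRNA: 11.7, 9.59 and 11 CPM against 30.3, 23.6 and 25.2 CPM (1.29, SE 0.16, adjusted p = 0.00191). The mitochondrial aminoacyl-tRNA synthetases, which charge tRNAs for this ribosome, had 8 of 20 higher and none lower in edgeR, DESeq2 and limma-voom (10 and 1 at an unadjusted p under 0.05, against 20% and 19.0% of all genes). By DESeq2 and limma-voom 14.9% and 14.3% of all genes rose. The smallest p-values in this list were those of Cars2 (1.09, SE 0.15, adjusted p = 0.00289) and Yars2 (0.80, SE 0.15, adjusted p = 0.0103). Of 20 tested genes of mitochondrial DNA transcription and RNA processing, Fastkd5, an RNA-binding protein needed for processing of mitochondrial RNA, rose (0.66, SE 0.14, adjusted p = 0.0151). Over these 5 lists together 12 of 87 tested genes rose and 2 fell (13.8% and 2.30%, against 13.7% and 13.8% of all genes), with a median of 0.29. With the replicate block 19 rose (21.8%, against 17.7% of all genes), and without Rpl22+/+ replicate 2, 31 did (35.6%, against 20.7%). None of the 12 tested mRNAs of mitochondrial DNA passed in any of the 3 tests, also at an unadjusted p under 0.05, with a median of 0.03. This median was -0.25 with GC correction, -0.05 without Rpl22+/+ replicate 2 and 0.15 without composition factors. Among nuclear subunits of oxidative phosphorylation 4 of 80 rose (5.0%) and none fell (median 0.15, with 10 higher and 5 lower at an unadjusted p under 0.05, and 7 and 3 by DESeq2), and among cytosolic ribosomal proteins 6 of 88 rose (6.82%) and 2, Rpl22 and Rpl39l, fell (median 0.18). Both shares that rose were below the 13.7% of all genes. Leaving out Rpl22+/+ replicate 2, 26 of the 80 rose and 1 fell (median 0.32), and 23 of the 88 rose and 2 fell (median 0.40), where 20.7% of all genes rose and 19.3% fell. With the replicate block 10 and 14 rose (12.5% and 15.9%, against 17.7% of all genes).

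The genes of smallest p in these 2 lists were the following. Cox6b2, a form of a cytochrome c oxidase subunit known from testis, stood at 6.29, 7.40 and 6.29 CPM in Rpl22+/+ and at 34.6, 30.6 and 30.8 CPM in Rpl22-/- (log2 fold change 2.26, SE 0.15, adjusted p = 0.00016). Ndufa5, a subunit of complex I, rose by 0.78 (SE 0.16, adjusted p = 0.0117). Of the cytosolic ribosomal proteins, Rps13 rose by 1.08 (SE 0.20, adjusted p = 0.00851) and Rps27l, a paralog of Rps27, by 1.24 (SE 0.27, adjusted p = 0.0149). Rpl39l, a paralog of Rpl39, stood at 2.05, 3.59 and 1.99 CPM against 0.0267, 0.0399 and 0.0661 CPM (adjusted p = 0.0004). Cytosolic ribosomal protein genes have many processed pseudogenes, so their levels are uncertain where reads were split between copies.

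Of 8 regulators known for nuclear mitochondrial genes, Myc stood at 30.3, 44.7 and 33.3 CPM in Rpl22+/+ and at 130, 128 and 117 CPM in Rpl22-/- and rose by 1.79 on the log2 scale (SE 0.18, adjusted p = 0.000804). Pprc1, a coactivator related to the PGC-1 family, rose by 0.75 (SE 0.15, adjusted p = 0.0118). The other 5 tested did not pass: the log2 values were -0.30 for Nrf1 (SE 0.16, adjusted p = 0.224), Esrra -0.25 (adjusted p = 0.321), Gabpa -0.14 (adjusted p = 0.596), Ppargc1b -0.46 (adjusted p = 0.191) and Yy1 0.05 (adjusted p = 0.823). Ppargc1a was too low to test. The plot of fold changes by group shows the ribosomal proteins beside these lists.

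**Figure D5:**
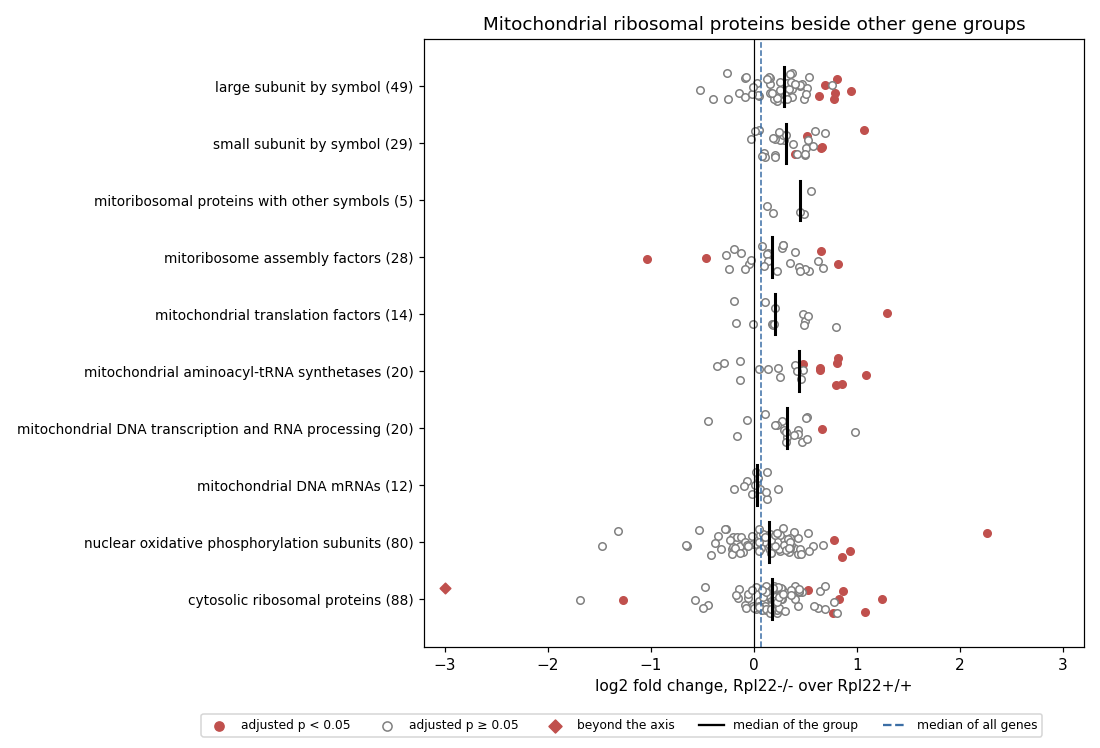
Log2 fold change in Rpl22-/- over Rpl22+/+ (edgeR) of each tested gene of the mitochondrial ribosome and of other gene groups, with the number tested in parentheses, filled points for an adjusted p under 0.05, a black bar at each group's median and a dashed line at the median of all genes (0.07). The medians run from 0.03 for the mRNAs of mitochondrial DNA to 0.45 for the 5 mitoribosomal proteins with other symbols, and the diamond at the left edge is Rpl39l, at -5.69.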

How the data were processed

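RNA of CD11b+Gr1+ splenocytes from Mll-AF9 mice was measured in 6 libraries, grouped by sample titles. Per the labels and the study's methods, poly(A)-selected RNA was made into stranded libraries and sequenced from both ends, and the authors used Trimmomatic for trimming and Salmon for quantification. The processing notes name the GRCm39 build. Tool versions and the transcript set are not given in the sources used here. The authors deposited estimated counts per transcript, which need not be whole, and TPM. Their table of a DESeq2 comparison served only for gene positions, and its fold changes and p-values were not used.

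Estimated counts were summed to genes with GENCODE vM21 transcript-to-gene pairs, matched without versions, and rounded. These matched 136036 of 276623 transcripts, which carried 98.0% to 98.1% of each library's reads, and no coordinate came from that annotation. Of 29374 genes with reads, 16656 passed filterByExpr and were tested with edgeR 4.0.16 (quasi-likelihood F test, R 4.3.3), TMM-scaled, with genotype as the only term and Benjamini-Hochberg adjustment over all genes. The scripts were tested on simulated data. Levels are CPM on TMM-scaled library sizes, and standard errors are those implied by the F statistic. Transcripts were tested alike. Alternatives used DESeq2 1.42.0, limma 3.58.1, other scalings and filters, a GC correction, a replicate block and fits without each library. Intervals and limits from counts cover counting error only. No 2 libraries of a group agreed within counting noise (chi-square per degree of freedom 17.2 to 422).

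The replicate numbers come from the sample titles. Same-numbered libraries deviated from their group means together at r = 0.57, 0.715 and 0.129 for numbers 1, 2 and 3 over 13202 genes, all over 0.1, so the numbers were taken to pair the libraries. Number 3 lies close to that limit, and Rpl22+/+ replicate 3 correlated more with Rpl22-/- replicate 1 (0.43). Over the 78 members alone the values were 0.517, 0.407 and -0.0507, so the pairing of number 3 did not show there. The main test leaves this pairing out, and the replicate block takes it in.

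The members and lists were chosen with earlier results of these data known. Named with values are the members that passed, the 3 highest and 3 lowest of each subunit, the stalk, Mrps18 forms, Mrps30 and Mrps36, Rpl22, the 2 genes of smallest p in each direction of each other list, and the regulators. The members lowest in fold change, Mrpl38, Mrpl40, Mrpl44, Mrpl45, Mrpl46, Mrpl48, Mrpl58, the pseudogenes and the marker genes were added after their values were seen.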

Additional observations from a re-analysis of the deposited data

How the results depend on the processing

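The count of members that rose (11) was 12 to 14 with DESeq2 size factors, no low-count filter, limma-voom, the DESeq2 test or genes of at least 50 counts, 17 with upper-quartile factors, 18 on protein-coding transcripts, 24 with the replicate block (1 lower), 30 with GC correction (1 lower), 45 with both (2 lower), 36 without composition factors, and 42 with limma on log2(TPM + 1) or log2(TPM + 0.1) (1 lower each). Of all genes, 7.57% to 15.4% rose in the first 5 of these fits, 15.7% with upper-quartile factors, 16.8% on protein-coding transcripts, 24% with GC correction and block (21.7% fell) and 19.7% with log2(TPM + 0.1). Leaving out 1 library gave 3 to 39, as listed above. The cause of these differences was not tested, beyond the fewer samples of a fit that leaves 1 out. Members over 2-fold higher numbered 2 without composition factors and with log2(TPM + 0.1), and 0 to 1 with 1 library left out. With 1 library left out, the median log2 fold change of the large subunit genes (0.29) ran from 0.17 without Rpl22+/+ replicate 1 to 0.41 without replicate 2, and that of the small subunit genes (0.31) from 0.19 to 0.48 without the same 2 libraries. Other mitochondrial gene expression genes (12 higher, 2 lower) were 32 and 1 without composition factors, 27 and 1 on both TPM scales, 19 higher with the block, 28 with GC correction, 35 with both, 2 to 31 higher and 1 to 2 lower with 1 library left out, and 1 lower with no low-count filter. Member transcripts (3 higher) were 18 without composition factors, 0 with the block and 0 to 9 with 1 library left out. Of the 11 members, 10 or 11 passed in each fit on all 6 libraries, and none of the 27 genes followed changed direction. Without composition factors the median of all genes was 0.19 in place of 0.07 and 21.3% rose and 13.3% fell, while the members' median exceeded it by 0.24, against 0.23. Among the members named, the block lost Mrps17, and Mrpl3, Mrpl20, Mrpl33, Mrpl44, Mrps15, Mrps36 and Mrpl52 (lower) passed. The effect of depth on these counts was not tested.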
